A study of Mus musculus with 11 samples.

Results

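The genes examined were 10 members of the MHC class II pathway, taken by name from the 27998 genes of every table and followed through all 11 single-cell libraries of sorted mouse macrophages (macs). They are Cd74, H2-Aa, H2-Ab1, H2-Eb1, H2-DMa, H2-DMb1, H2-DMb2, H2-Oa, H2-Ob and Ciita. All 10 had at least 1 unique molecular identifier (UMI, 1 captured transcript) in 9 of the 11 libraries. The exceptions were Ciita in WT microglia and H2-Ob in WT alveolar macs, each with 0 UMIs.

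The libraries were made with 10x Genomics 3′ chemistry from microglia (brain), colonic macs (CMs), Kupffer cells (KCs, liver), alveolar macs (AMs, lung) and splenic macs (SMs). The WT library of each tissue came from mice with loxP-flanked Zeb2 (Zeb2fl/fl) and no CRE, and the Zeb2KO library was from mice with a CRE transgene in addition, made to delete the transcription factor ZEB2 in the targeted cells. By the study's account some macs kept an intact Zeb2 allele in every organ but the brain, so that the other Zeb2KO libraries are mixtures and their ratios are those of the mixture. Another WT library held KCs of mice with loxP-flanked Nr1h3 (Nr1h3fl/fl), and no agent was given to any group. In the study these mice were littermate controls for a cross that deletes Nr1h3, and not for the Zeb2KO mice. Each library was the only 1 of its group, so differences within a tissue have no replicate check. The mice were on a C57Bl/6 background, male and female, aged 6 to 8 weeks, and controls were littermates. All Zeb2KO libraries are labelled Fcgr1-crexZeb2fl/fl, whereas the methods give Itgax-cre as the line used in the lung and Clec4f-cre as that of the liver. The CRE line of these libraries is therefore not settled here, and the groups are called Zeb2KO. Fcgr1-cre is driven by the gene of CD64, and by the study's account it is also active in other immune cells. The gates used CD64 and F4/80 in every tissue, with Clec4F for KCs and with CD11c and SiglecF for AMs. For CMs and SMs, cells positive for Ly6C, Ly6G or SiglecF were gated out, and class II itself was not part of the gates. How many mice went into a library is not given in the sources used here.

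MHC class II molecules present peptides from the endosomes to CD4 T cells. An alpha chain and a beta chain (H2-Aa with H2-Ab1, or E alpha with H2-Eb1) pair in the endoplasmic reticulum with the invariant chain encoded by Cd74, which blocks the groove and directs the complex to endosomes. Mice of the C57Bl/6 strain make no E alpha chain, so that the H2-Eb1 product lacks its partner. In the endosome the remaining invariant chain peptide is released with the help of H2-DM (H2-DMa with H2-DMb1 or H2-DMb2), and H2-DO (H2-Oa with H2-Ob) inhibits H2-DM. Ciita encodes the coactivator that switches on these genes through the X and Y boxes of their promoters. Dendritic cells and B cells carry class II at all times, H2-DO is best known from B cells, and resting microglia and AMs of the mouse carry little class II.

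On GRCm38, 8 of the 10 genes lie within 224 kb of chromosome 17 (chr17:34092340-34316674), in the order H2-Oa, H2-DMa, H2-DMb2, H2-DMb1, H2-Ob, H2-Ab1, H2-Aa and H2-Eb1. Ciita lies apart at chr16:10480059-10528418, and Cd74 lies on another chromosome. H2-DMb1 and H2-DMb2 are near-identical copies, so how their reads were divided is uncertain. H2-Oa and H2-Eb1 overlap antisense genes (BC051537 and Gm20513), and H2-DMa and Ciita overlap protein-coding genes of the opposite strand (Brd2 and Dexi). BC051537 stayed at or below 1.24 counts per 1000000 UMIs (CPM) in every library and Gm20513 at or below 3.46 CPM.

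Because the chains and the DO genes had different patterns, the promoter letters are shown for an alpha chain, a beta chain and the DO beta chain. RefSeq promoter windows on GRCm38.p6, from 250 bases before to 50 bases after the transcript start, were matched for 7 of the 10 genes (8 windows). The stretches run 5′ to 3′ on the strand of the gene from position -110 to position -3, and capitals mark the X box core (CTAGNNAC) and the reversed Y box core (CCAAT on the other strand), while a further CCAAT of H2-Eb1 on the coding strand, at position -35, is left in lower case:
H2-Aa (minus strand, chr17:34287826-34287933): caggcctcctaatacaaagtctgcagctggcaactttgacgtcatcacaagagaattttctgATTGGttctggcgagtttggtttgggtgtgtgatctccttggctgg
H2-Eb1 (plus strand, chr17:34305757-34305864): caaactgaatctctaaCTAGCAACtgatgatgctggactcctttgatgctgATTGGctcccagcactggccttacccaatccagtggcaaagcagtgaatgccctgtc
H2-Ob (plus strand, chr17:34238795-34238902): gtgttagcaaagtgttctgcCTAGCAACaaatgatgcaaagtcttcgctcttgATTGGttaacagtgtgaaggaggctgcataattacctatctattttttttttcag

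Motifs were searched on both strands. The X box core on the coding strand together with a reversed Y box core was found in H2-Eb1 (positions -94 and -59), H2-DMb1 (-97 and -61) and H2-Ob (-90 and -57). This pair of letters occurred in 1.11% of 32851 promoter windows of the same length. H2-Aa, H2-DMb2, H2-Oa and 1 of the 2 H2-DMa windows held a reversed Y box core without these X box letters. The H2-Aa stretch shown holds ctggcaac ahead of its Y box core, close to the CTAGCAAC of H2-Eb1 and H2-Ob but outside the fixed letters. A missing match therefore does not mean that a promoter lacks an X box. The Y box core alone occurred in 37.4% of all windows and the X box core alone in 10.4%. The E-box CACCTG, letters that ZEB factors are known to bind, was found in 1 of the 7 matched genes (H2-DMa, position -56), against 20.2% of all windows. A match is a description of the letters in these windows and no binding was measured here.

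After cell filtering and removal of clusters of other cell types, 2830 to 6974 cells per library remained, with 8289716 to 43307214 UMIs. No cluster was left out in brain. Left out were 21.5% (WT) and 14.4% (Zeb2KO) of spleen cells, 9.73% and 14.2% of liver cells, 4.30% and 4.84% of colon cells and at most 0.398% of lung cells. Kept among the macs were a colon cluster led by smooth muscle genes (Actg2, Myh11; 39 WT and 30 Zeb2KO cells), a spleen cluster raised for B cell markers (215 and 136 cells) and clusters raised for dendritic cell markers in spleen (74 and 68 cells) and liver (81 and 62 cells). Any 2 libraries shared 14 to 76 cell barcodes. The sum of the fixed tissue markers was highest in its own tissue for microglia, KCs, AMs, SMs and CMs, and Fcgr1 and Csf1r were detected in each library. Zeb2 itself was no lower in the Zeb2KO libraries (475 CPM in WT and 1747 CPM in Zeb2KO microglia, for example), and since 3′ reads lie outside the deleted part of the gene, this checks nothing about the deletion.

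Cells left out as other types also held UMIs of these abundant genes, as RNA free in the droplets would give. In the colon, the cluster of fibroblasts held a summed 8802 CPM of Cd74, H2-Aa, H2-Ab1 and H2-Eb1 in WT and 5949 CPM in Zeb2KO. In the spleen, T and NK cells held 994 CPM in WT and 2246 CPM in Zeb2KO, with a Cd74 UMI in 57.8% and 73.7% of cells at medians of 2531 and 2724 UMIs. Neither cell type is known for class II at rest, so levels near these cannot be told apart from background. In the liver, a cluster left out as endothelium held a summed 10638 CPM in Zeb2fl/fl WT (102 cells) and 3892 CPM in Nr1h3fl/fl WT (26 cells). The part of free RNA in the liver levels was not tested.

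The invariant chain and the classical chains ranked the WT tissues in nearly the same order. For Cd74 the level was 24036 CPM in CMs, 7747 in KCs, 2954 in Nr1h3fl/fl KCs, 2297 in SMs, 193 in microglia and 83.1 in AMs. H2-Aa followed with 8278, 3326, 1372, 740, 28.9 and 32.0 CPM in the same libraries, and the microglia and AM values overlapped within their exact Poisson 95% intervals, which cover counting error only. All other neighbours in the orders of Cd74, H2-Aa, H2-Ab1 and H2-Eb1 were apart by more than counting error. That is a statement about counting, since the 2 WT liver libraries, which share the tissue and lack CRE, differed by 2.62-fold for Cd74.

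H2-Ab1, the A beta chain, was at 9691 CPM in CMs, 3704 in KCs, 615 in SMs, 46.9 in microglia and 32.8 in AMs. H2-Eb1 was at 8133 CPM in CMs, 2186 in KCs, 476 in SMs, 24.4 in microglia and 12.6 in AMs. The A and E beta chains therefore had close levels in CMs, while H2-Eb1 was the lower in the other WT tissues. In UMIs, which in 3′ counting do not grow with transcript length, H2-Eb1 per H2-Ab1 was 0.839 in WT CMs, 0.774 in SMs, 0.590 in KCs, 0.520 in microglia and 0.383 in AMs.

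**Figure D1:**
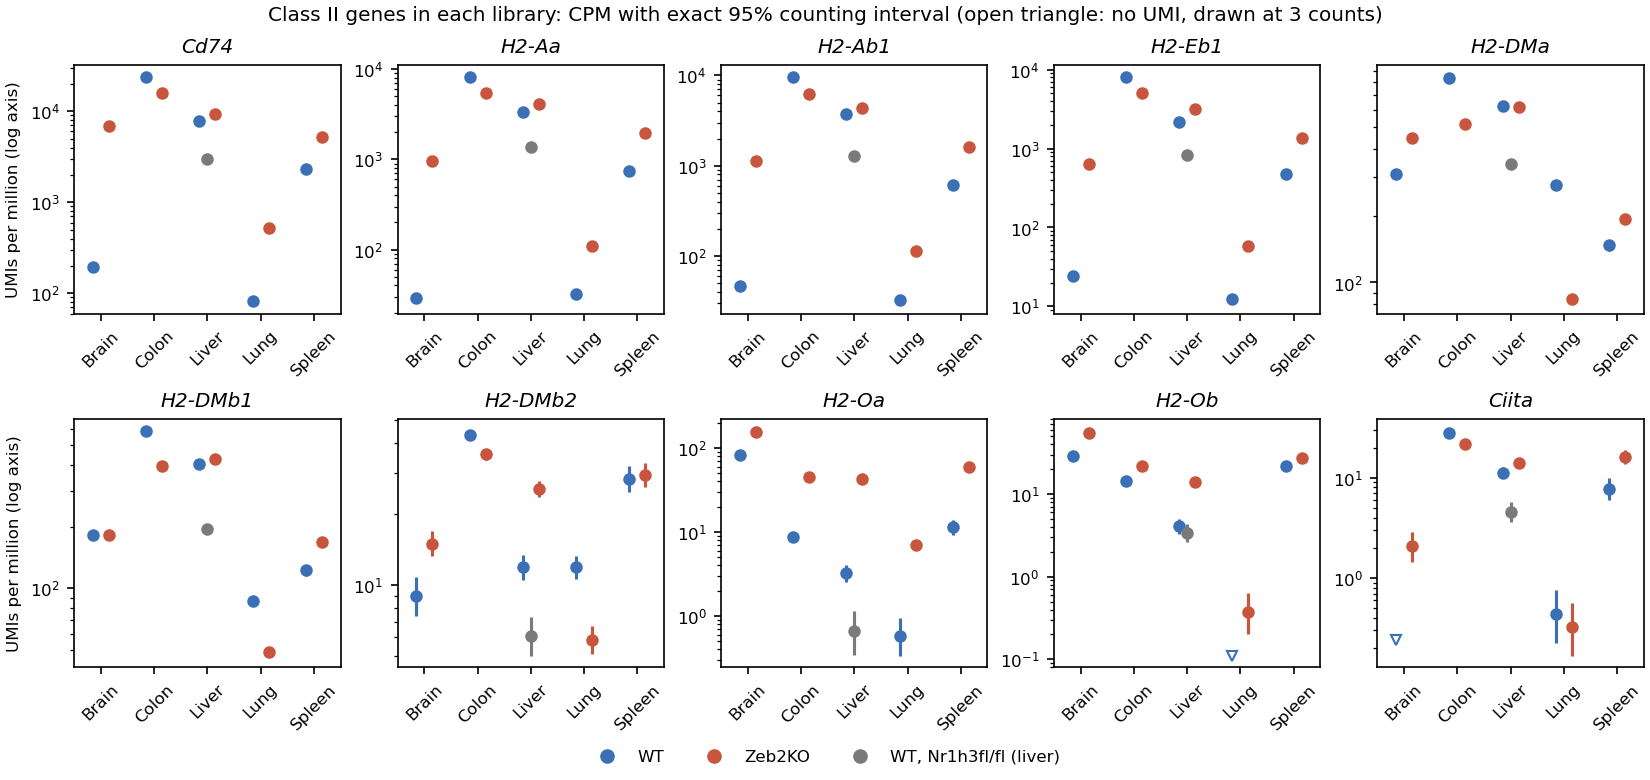
Each panel shows a class II gene, with CPM on a log axis for every library of the 5 tissues (blue WT, red Zeb2KO, grey WT KCs with Nr1h3fl/fl). Bars are exact Poisson 95% intervals and open triangles mark libraries with no UMI, drawn at 3 counts. Cd74 spans 83.1 CPM in WT AMs to 24036 CPM in WT CMs, and the Zeb2KO microglia sit at 6915 CPM against 193 CPM in WT.

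In microglia the invariant chain and the chains were far higher in the Zeb2KO library. Cd74 was 193 CPM in WT and 6915 CPM in Zeb2KO, a log2 ratio (of CPM plus 1) of 5.16 with a counting interval of 5.10 to 5.22. H2-Aa was 28.9 CPM in WT and 972 CPM in Zeb2KO (log2 ratio 5.02). H2-Ab1 went from 46.9 to 1132 CPM (4.56) and H2-Eb1 from 24.4 to 634 CPM (4.64). All 4 genes passed the rule used within a tissue, a ratio of at least 2-fold with a level of 20 CPM or more in one of the libraries. Of the 8 members over that floor in brain, 4 were higher and 0 were lower by this rule, and over all genes it called 4.27% higher and 4.07% lower. The median log2 ratio of those members was 2.73, beside -0.09 for all 5922 genes. The Zeb2KO microglia stayed below WT KCs for Cd74 and for each chain. In cells thinned to 1500 UMIs, a Cd74 UMI was found in 9.43% of WT and 91.7% of Zeb2KO microglia.

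The microglia pair has values of other markers beside it. The summed microglia markers were 23852 CPM in WT and 14808 CPM in Zeb2KO. B cell markers summed to 112 and 82.9 CPM and came almost wholly from Cd79b and Bank1, while Cd79a and Fcmr were at or below 0.532 CPM. Dendritic cell markers summed to 456 CPM in WT and 125.3 CPM in Zeb2KO, with 3 and 4 of the 9 genes at 1 CPM or more. Flt3, one of them, was 0.718 CPM in the largest WT cluster and 0.949 CPM in the next. A few genes thus carried these sums, and whether the microglia themselves express them was not tested. Without the cells that held any UMI of a B cell or dendritic cell marker, which keeps 14.4% of WT and 43.5% of Zeb2KO cells, the log2 ratios were 4.06 for Cd74, 3.56 for H2-Aa, 3.42 for H2-Ab1 and 3.24 for H2-Eb1. Cd74 was then 457 CPM in WT and 7639 CPM in Zeb2KO, and H2-Aa 94.8 and 1127 CPM. The levels were thus higher in both libraries than with all cells, and the ratios were smaller because WT rose more. The WT side of this filter was 408 cells. Among all 2830 WT microglia, the 357 UMIs of H2-Aa lay in 50 cells and the 301 of H2-Eb1 in 46 cells. Cd74 had a UMI in 544 cells and H2-Ab1 in 235 cells. The WT rise, and with it the smaller ratios, can therefore rest on few cells, and this was not tested.

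In AMs the same 4 genes were also higher in the Zeb2KO library, but from a very low level and in few cells. Cd74 was 83.1 CPM in WT and 524 CPM in Zeb2KO (log2 ratio 2.64). H2-Aa was 32.0 and 109 CPM (1.74), H2-Ab1 32.8 and 115 CPM (1.77), and H2-Eb1 12.6 and 58.4 CPM (2.13). Of 6 members over the floor in lung, 4 were higher and 1 was lower, and the rule called 4.35% of all genes higher and 7.36% lower. Scaling by TMM factors in place of total UMIs moves every lung log2 ratio up by 0.289, and by under 0.1 in the other tissues.

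The lung gain lay in 1 cluster of cells. Clusters were made without the class II genes and the related lists, and 1 of them, led by the complement genes C1qa, C1qb and C1qc, held 227 of 6251 Zeb2KO cells (3.62%) and 5 WT cells. It carried 85.0% of all Cd74, H2-Aa, H2-Ab1 and H2-Eb1 UMIs of the Zeb2KO library, at a summed level of 13901 CPM. Without this cluster Cd74 was 78.2 CPM in WT and 99.2 CPM in Zeb2KO, and the chains were lower in Zeb2KO than in WT. H2-Aa was then 31.1 and 11.4 CPM, H2-Ab1 31.8 and 11.9 CPM, and H2-Eb1 11.9 and 4.91 CPM, with log2 ratios of -1.37, -1.34 and -1.12.

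The cells of the C1q cluster had lower levels of AM markers than the rest of the Zeb2KO library. Marco was 75.7 CPM in them and 624 CPM in the other Zeb2KO cells, Fabp4 18.5 and 78.8 CPM, Car4 98.5 and 791 CPM, and Chil3 3747 and 21509.6 CPM. Genes known from other cell types were mixed: Cd79a was at 0 UMIs and Flt3 at 1 UMI in the cluster (0 in the other Zeb2KO cells). Ms4a1, by the study also a gene of KCs and CMs without ZEB2, was 68.0 CPM in the cluster and 24.0 CPM in the other Zeb2KO cells. Ccr2 was 37.6 and 9.48 CPM. The part of other cell types in the class II level was not tested. The members' levels varied within it: 85 of the 227 cells (37.4%) had at least 100 UMIs of the 4 genes per 10000, and the other 142 cells had a median of 19.8.

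In SMs the 4 genes were higher in the Zeb2KO library by 2.29-fold (Cd74) to 2.89-fold (H2-Eb1). Cd74 was 2297 CPM in WT and 5254 CPM in Zeb2KO (log2 ratio 1.19). H2-Aa was 740 and 1986 CPM (1.42), H2-Ab1 615 and 1629 CPM (1.40), and H2-Eb1 476 and 1374 CPM (1.53). With H2-Oa, 5 of 9 members over the floor in spleen were higher and 0 lower, beside 2.33% and 0.81% of all genes. With the other cell types kept, the log2 ratio of Cd74 was 0.89 and its call ended. The T and NK cells of the same 2 libraries, given above, differed in the same direction and by a similar factor, and the part of free RNA in the SM difference was not tested. Without the cells holding a UMI of a B cell or dendritic cell marker (32.8% of WT and 31.2% of Zeb2KO cells kept), Cd74 was 1769 and 4141 CPM.

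In KCs the 4 genes differed little between WT and Zeb2KO. Cd74 was 7747 CPM in WT and 9351 CPM in Zeb2KO (log2 ratio 0.27), H2-Aa 3326 and 4114 CPM (0.31), H2-Ab1 3704 and 4349 CPM (0.23) and H2-Eb1 2186 and 3124 CPM (0.51). The Nr1h3fl/fl WT library was lower than both for every one of these genes. Against the Zeb2fl/fl WT library its log2 ratios were -1.39 for Cd74, -1.28 for H2-Aa, -1.52 for H2-Ab1 and -1.42 for H2-Eb1. Of 8 members over the floor, 2 were higher in Zeb2KO than in WT (H2-DMb2 and H2-Oa) and 0 lower, beside 3.49% and 1.22% of all genes. Between the 2 libraries without CRE, 5 of 6 members over the floor were lower and 0 higher, although the rule called 0.811% of all genes lower and 0.505% higher. The liver result thus depends on the WT library, of which only Zeb2fl/fl is the littermate control of Zeb2KO. Against Nr1h3fl/fl WT, from another cross, 7 of 8 members over the floor were higher in Zeb2KO and 0 lower. The shares of all genes were 4.35% and 4.11%.

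In CMs the direction over the whole library was the reverse of that in brain and spleen, at a smaller size. It was the reverse of that in lung for Cd74 with or without the C1q cluster, and for the 3 chains only with it. Cd74 was 24036 CPM in WT and 15766 CPM in Zeb2KO (log2 ratio -0.61), H2-Aa 8278 and 5425 CPM (-0.61), H2-Ab1 9691 and 6194 CPM (-0.65), and H2-Eb1 8133 and 5047 CPM (-0.69). None of them passed the 2-fold rule, which called 1 of the 10 members higher (H2-Oa) and 0 lower in colon, beside 1.07% and 0.486% of all genes. The colon differences were smaller than those between the 2 WT liver libraries, which are from different crosses. By the study's account, every CM identified as lacking ZEB2 had high Cd74, and other CMs of the CRE mice presumably kept an allele. The colon ratios are therefore those of a mixture and do not give the level in CMs without ZEB2.

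**Figure D2:**
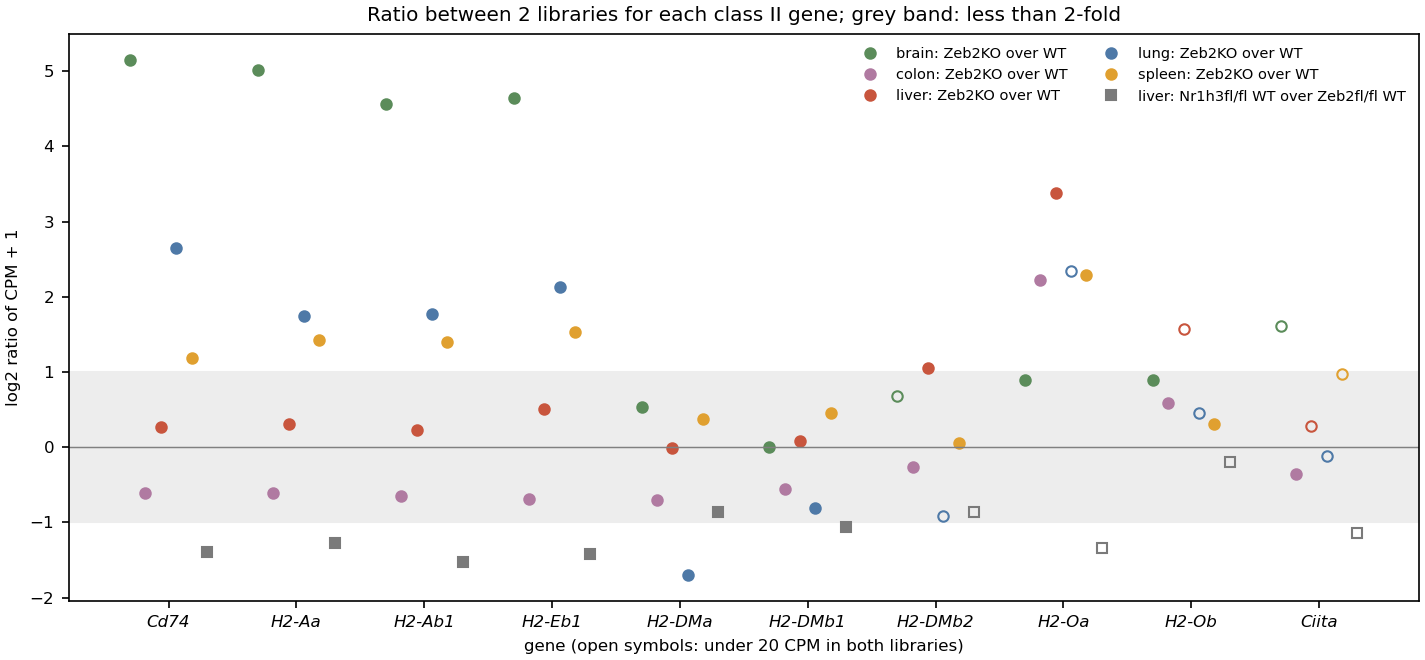
Log2 ratio of CPM plus 1 between 2 libraries for each class II gene, with the 5 Zeb2KO over WT ratios as circles and the ratio of the 2 WT liver libraries as grey squares. Open symbols are genes under 20 CPM in both libraries and the grey band covers ratios under 2-fold. Cd74 and the chains lie at 4.56 to 5.16 in brain and at -0.69 to -0.61 in colon, while the grey squares of these genes lie between -1.52 and -1.28.

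The H2-DM genes, whose product loads peptide, followed the chains only loosely. H2-DMa was 839 CPM in WT CMs, 622 in KCs, 340.5 in Nr1h3fl/fl KCs, 308 in microglia, 276 in AMs and 147 in SMs. H2-DMa was thus well expressed in WT microglia and AMs, where the chains were almost absent. Microglia held 0.201 UMIs of the 3 chains per UMI of the 3 DM genes and AMs 0.207, against 17.8 in CMs, 8.88 in KCs and 6.15 in SMs.

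Between genotypes H2-DMa and H2-DMb1 differed by under 2-fold in 4 tissues. In brain H2-DMa was 308 CPM in WT and 447 CPM in Zeb2KO (log2 ratio 0.54) and H2-DMb1 181 and 182 CPM (0.01). In colon H2-DMa was 839 and 516 CPM (-0.70) and H2-DMb1 584 and 397 CPM (-0.56). In liver H2-DMa was 622 and 620 CPM (-0.00), and in spleen 147 and 192 CPM (0.38).

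In the lung H2-DMa was lower in the Zeb2KO library, while the chains were higher in the library as a whole and lower without the C1q cluster. H2-DMa was 276 CPM in WT and 84.3 CPM in Zeb2KO AMs (log2 ratio -1.70), and H2-DMb1 was 86.5 and 48.8 CPM (-0.81). H2-DMa had a UMI in 30.9% of WT and 12.8% of Zeb2KO cells thinned to 1500 UMIs (57.9% and 31.1% before thinning). Without the C1q cluster the log2 ratio of H2-DMa was -1.83, so this difference did not rest on those cells. Among the Zeb2KO clusters it was not even: H2-DMa was 32.6 CPM in the largest, led by Ceacam10 and Krt8 (3290 cells), and 220 CPM in the next, led by Spag11b and Ffar2 (1738 cells).

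H2-DMb2 was the lowest of the 3 DM genes in all 11 libraries. It ranged from 5.85 CPM in Zeb2KO AMs to 43.3 CPM in WT CMs. In liver it was 11.9 CPM in WT and 25.7 CPM in Zeb2KO, a log2 ratio of 1.05, which just passed the 2-fold rule. That call ended with the other cell types kept (0.54) and without the cells holding a B cell or dendritic cell UMI (0.94). In colon H2-DMb2 was 43.3 and 36.0 CPM (-0.26) and in spleen 28.2 and 29.3 CPM (0.05). Without the spleen clusters raised for B cell or dendritic cell markers it was 12.7 and 22.3 CPM there (0.77).

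The H2-DO genes had their own order of tissues. H2-Oa was highest in WT microglia, at 83.2 CPM, followed by 11.3 CPM in SMs, 8.82 in CMs, 3.21 in KCs, 0.662 in Nr1h3fl/fl KCs and 0.583 in AMs. H2-Ob likewise was highest in WT microglia, at 29.3 CPM, with 22.0 in SMs, 14.3 in CMs, 4.07 in KCs, 3.42 in Nr1h3fl/fl KCs and 0 in AMs. The place of SMs above CMs depended on the kept spleen clusters raised for B cell or dendritic cell markers. Without them WT SMs held 4.28 CPM of H2-Oa and 8.83 CPM of H2-Ob, both below CMs. Microglia were thus the tissue with the least of the chains after AMs and the most of DO. In the 2 brain clusters that held 51.4% and 45.8% of WT microglia, H2-Oa was 93.6 and 74.0 CPM while Cd79a was at or below 0.718 CPM.

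H2-Oa was higher in the Zeb2KO library of every tissue. It went from 83.2 to 156 CPM in microglia (log2 ratio 0.90), from 8.82 to 44.9 CPM in CMs (2.23), from 3.21 to 42.8 CPM in KCs (3.38), from 0.583 to 7.03 CPM in AMs (2.34) and from 11.3 to 59.6 CPM in SMs (2.30). The lung values are 16 and 262 UMIs and lie under the 20 CPM floor. In cells thinned to 1500 UMIs, the share with an H2-Oa UMI was 11.1% and 19.3% in brain, 1.03% and 5.12% in colon, 0.179% and 5.53% in liver, 0.0144% and 0.848% in lung, and 1.40% and 6.95% in spleen. The other WT liver library lay on the low side, at 0.662 CPM and 12 UMIs. For comparison the colon fibroblasts held 1.59 CPM in WT and 6.79 CPM in Zeb2KO.

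H2-Oa is a B cell gene elsewhere, so B cell values stand beside it. The B cells left out of the spleen held 126 CPM of H2-Oa in WT and 144 CPM in Zeb2KO. Summed B cell markers in the remaining SMs were 591 CPM in WT and 470 CPM in Zeb2KO, and 216 and 246 CPM in KCs. Without 2 small spleen clusters raised for B cell or dendritic cell markers, H2-Oa was 4.28 CPM in WT and 56.8 CPM in Zeb2KO SMs (log2 ratio 3.45). Without all cells that held a B cell or dendritic cell marker UMI it was 4.70 and 36.5 CPM in SMs, 0.735 and 32.2 CPM in KCs and 9.95 and 34.2 CPM in CMs.

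H2-Ob, the partner chain, differed less. Its log2 ratio was 0.90 in brain (29.3 and 55.4 CPM), 0.58 in colon (14.3 and 21.9 CPM) and 0.30 in spleen (22.0 and 27.3 CPM). The spleen ratio depended on the cells kept. It was 1.04 (8.83 and 19.2 CPM) without the clusters raised for B cell or dendritic cell markers, and -0.39 with the other cell types kept. In liver H2-Ob was 4.07 and 14.1 CPM (1.58, under the floor). In lung there were 0 UMIs in WT and 14 in Zeb2KO, at least 3.44-fold more than the 3 UMIs that a count of 0 allows. Of these 14 UMIs, 13 were in the C1q cluster, and the other 6024 Zeb2KO cells held 1.

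The proportion of the DO chains was higher in the Zeb2KO library in 3 tissues. H2-Oa per H2-Ob UMI was 0.618 in WT and 2.06 in Zeb2KO CMs, 0.789 and 3.03 in KCs, and 0.516 and 2.18 in SMs, with 95% counting intervals that did not overlap. In microglia it was 2.84 in WT and 2.82 in Zeb2KO. In Nr1h3fl/fl KCs it was 0.194, so that the 2 WT liver libraries also differed beyond their counting intervals. AMs allow no comparison, as the WT library had 0 H2-Ob UMIs.

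Ciita, the coactivator, was at low counts everywhere. It was 28.1 CPM in WT CMs, 11.3 in KCs, 7.72 in SMs, 4.58 in Nr1h3fl/fl KCs, 0.437 in AMs (12 UMIs) and 0 in microglia. In Zeb2KO it was 21.6 CPM in CMs, 13.9 in KCs, 16.1 in SMs, 0.322 in AMs (12 UMIs) and 2.07 in microglia. The 35 UMIs of Zeb2KO microglia were at least 8.50-fold more than the 3 UMIs that 0 counts in WT allow. Colon was the only pair in which Ciita passed the 20 CPM floor, with a log2 ratio of -0.36.

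Over the 11 libraries, Pearson's r between log2 Ciita and the log2 summed level of Cd74 and the 3 chains was 0.914, and 3 of 8024 other genes had a higher r. The r was 0.787 for H2-DMb1, 0.643 for H2-DMb2, 0.600 for H2-DMa, 0.484 for H2-Ob and 0.235 for H2-Oa. The genes outside the pathway with the most similar pattern were Fgl2 (0.956), H2-Q7 (0.927), Cd40 (0.923), Ccl5 (0.914), Baiap2 (0.894), Cpne2 (0.884), Cd52 (0.878) and Ms4a4c (0.872). These are descriptions over 11 libraries that share tissues. Brain and lung WT libraries are the lowest WT libraries in Cd74, the 3 chains and Ciita. In the DM genes they are not the lowest pair, although lung WT is the lowest in H2-DMb1. Brain WT is the highest WT library in H2-Oa and H2-Ob.

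Whether a gene shifted in common across the 5 tissues was tested in edgeR with the quasi-likelihood test, the tissue as a block and Benjamini-Hochberg adjustment over 12076 genes. None of the 10 members passed an adjusted p of 0.05, as was the case for all 12076 genes (0%, with 1449 genes at an unadjusted p under 0.05). H2-Oa had the largest estimate, log2 2.55 with a standard error of 0.43 and an edgeR adjusted p of 0.193, and was higher in 5 of 5 tissues. H2-Ob, the second by p, had an estimate of 1.03, a standard error of 0.35 and an edgeR adjusted p of 0.354. Cd74 had an estimate of 1.65 with a standard error of 0.93 and an edgeR adjusted p of 0.518, being higher in 4 of 5 tissues. Without the brain pair its estimate was 0.89, and without the C1q cluster of the lung 1.05. The estimates of H2-Eb1, H2-Aa and H2-Ab1 were 1.63, 1.49 and 1.43, and they were 0.80, 0.71 and 0.66 without the C1q cluster and 0.94, 0.77 and 0.75 without the brain pair.

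DESeq2 with the same design called 367 genes (3.04%), among them H2-Oa (DESeq2 adjusted p 6.02e-08) and H2-Ob (0.0387), and none of the other 8 members. The estimates of H2-DMa and H2-DMb1 in edgeR were -0.23 and -0.11. For H2-Oa the other 11 alternatives with the tissue block gave edgeR adjusted p values of 0.124 to 0.506.

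Class II also differed between cells of a library. To describe this, each cell was given a score, the UMIs of Cd74, H2-Aa, H2-Ab1 and H2-Eb1 per 10000 of its UMIs, and a score of 100 was taken as a limit. In brain 0.247% of WT and 28.5% of Zeb2KO microglia reached it, and the median score was 0 in WT and 43.2 in Zeb2KO. A score of 0 was found in 73.4% of WT and 0.247% of Zeb2KO microglia, and the 10th percentile of Zeb2KO cells was 9.33. No cluster of another cell type was found in brain to give the background share. In lung the medians were 0 in both, and 0.0287% and 1.42% of cells were over the limit.

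In spleen 5.56% of WT and 35.5% of Zeb2KO cells reached a score of 100, with medians of 24.5 and 74.7. In liver the shares were 65.0% and 65.1% (15.3% in Nr1h3fl/fl WT), with medians of 137, 153 and 41.9. The scores form a range and not a type, since 7.56% and 20.3% of SMs and 19.6% and 14.1% of KCs lay near the limit of 100.

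Colon alone showed 2 groups of cells. Of WT CMs 68.7% and of Zeb2KO CMs 50.1% had a score of at least 100, and the 10th and 90th percentiles were 59.4 and 967 in WT and 27.4 and 814 in Zeb2KO. The lower group was spread: the cluster led by Cd36, Adam33 and Cbr2 held a summed 11457 CPM in WT and 4002 CPM in Zeb2KO, against 8802 and 5949 CPM in fibroblasts. The clusters led by Ccl8 and by Ccl2 were higher, at 23627 and 20151 CPM in WT and 12308 and 10388 CPM in Zeb2KO. The 5 highest clusters, chosen after their values were seen, held 53194 to 94137 CPM in WT and 51676 to 102538 CPM in Zeb2KO. Between these and the lower clusters were one led by interferon response genes (Iigp1, Ifit1), at 48368 and 34484 CPM, and a proliferating one (Top2a, Birc5), at 32456 and 15353 CPM. The summed level was lower in Zeb2KO in 11 of the 13 clusters kept. The cluster led by H2-M2, Pgf and Gpnmb, for example, was at 77016 CPM in WT and 64812 CPM in Zeb2KO. Higher in Zeb2KO were the clusters led by Hp and Ms4a1 (55538 and 57044 CPM) and by Hbb-bs and Gbp2b (94137 and 102538 CPM). Both were among the 5 highest. Some of the 11, such as the Cd36 cluster, lay near the fibroblast level, which was itself lower in Zeb2KO.

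**Figure D3:**
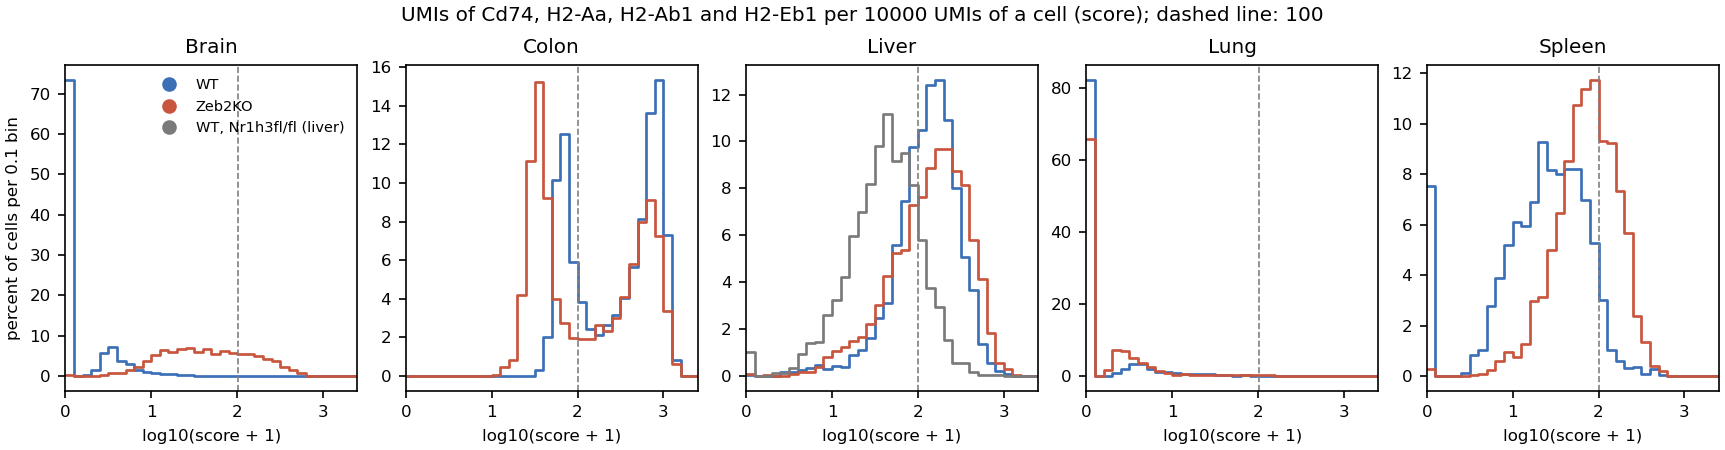
Percent of cells per bin of log10(score + 1) for each library, in which the score is the UMIs of Cd74, H2-Aa, H2-Ab1 and H2-Eb1 per 10000 UMIs of the cell and the dashed line marks 100. Zeb2KO microglia (red) are shifted as a whole from the WT cells (blue), of which 73.4% lie at 0. CMs have 2 modes in both genotypes, and 82.2% of WT and 65.7% of Zeb2KO AMs lie at 0.

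Some, but not all, of the clusters made up mostly of Zeb2KO cells had high H2-Oa. In colon the cluster led by Hp and Ms4a1 (18.7% of Zeb2KO and 1.16% of WT cells) held 168 CPM of H2-Oa in Zeb2KO, against 28.3 CPM in the H2-M2 cluster of the same library. Flt3, Cd79a and Ccr2 were also higher in it than in the H2-M2 cluster. Flt3 was 12.7 and 0.286 CPM, Cd79a 3.18 and 1.14 CPM, and Ccr2 151 and 7.72 CPM. The 53 WT cells of the Hp and Ms4a1 cluster held 8.41 CPM of Flt3, 2.10 of Cd79a, 334 of Ccr2 and 16.8 of H2-Oa. The part of other cell types was not tested. In the Zeb2KO cells of this cluster the summed level of Cd74 and the chains was 57044 CPM, within the range of the 5 highest clusters. In spleen the cluster led by S100a8 and S100a9 (19.9% of Zeb2KO cells) held 165 CPM of H2-Oa and a summed 18362 CPM of the 4 genes, while the largest Zeb2KO cluster, in which Meg3 was a leading gene, held 12.6 CPM and 6158 CPM. Cd79a was 32.8 and 26.5 CPM in these 2 clusters.

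In liver the cluster led by Siglecf and Il1r2 (42.5% of Zeb2KO cells and 0 WT cells) held 72.6 CPM of H2-Oa and a summed 27408 CPM of the 4 genes. The cluster in which Meg3 and Ccr2 were leading genes (18.9% of Zeb2KO cells) held 4.02 CPM of H2-Oa and 16576.5 CPM. In the 2 largest WT clusters the 4 genes were lower in Zeb2KO. The cluster led by Clec4f was at 18674 CPM in WT and 12514 CPM in Zeb2KO, and the cluster led by Dapk1 at 11458 and 7050.28 CPM. A small shared cluster led by Cd209a and raised for dendritic cell markers was the other way, at 30598 and 44544 CPM.

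In lung H2-Oa was 11.4 CPM in the C1q cluster, with 21.2 CPM (15 UMIs) in its 85 cells with a score of at least 100 and 5.32 CPM (6 UMIs) in the other 142, and 4.52 to 15.2 CPM in the other Zeb2KO clusters of at least 97 cells. The WT clusters of at least 97 cells held at most 1.18 CPM.

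In brain the Zeb2KO clusters ranged from 7145 CPM to 17150 CPM of the 4 genes, and the WT clusters from 129 to 649 CPM. The highest of both was the cluster led by Gpnmb and Lgals3, in which Spp1 was also a leading gene. It held 70 WT and 157 Zeb2KO cells and is the only brain cluster with at least 20 cells of each genotype. A cluster led by interferon response genes (Ifit1bl1, Rsad2, Ifit1) was the next, with 15393 CPM in 67 Zeb2KO cells.

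**Figure D4:**
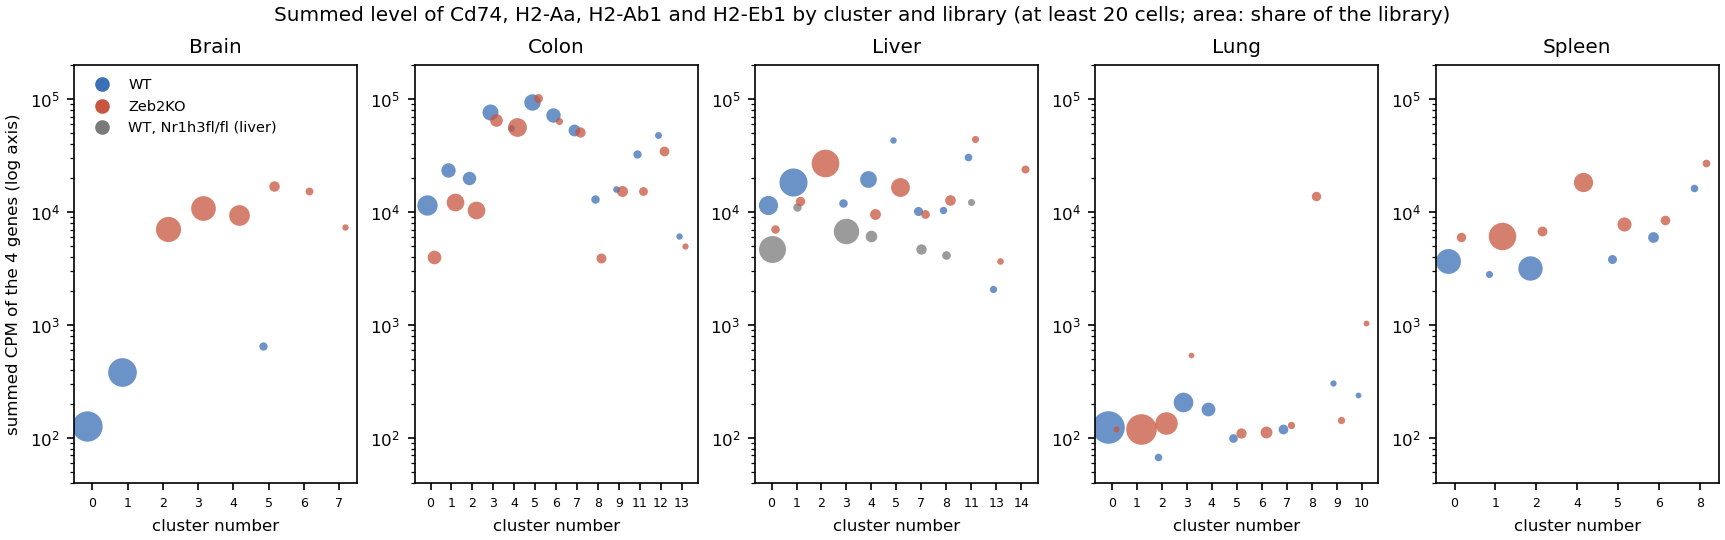
Summed CPM of Cd74, H2-Aa, H2-Ab1 and H2-Eb1 on a log axis for each cluster of at least 20 cells, with the area of a point giving the share of its library (blue WT, red Zeb2KO, grey Nr1h3fl/fl WT). In lung the C1q cluster (number 8) is at 13901 CPM in Zeb2KO, and the brain clusters of the 2 genotypes do not overlap in level.

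Correlations between members were also taken across cells. In cells thinned to 1500 UMIs, Pearson's r between Cd74 and H2-Aa was 0.892 in WT CMs, 0.670 in WT KCs, 0.543 in WT SMs and 0.671 in Zeb2KO microglia. Between H2-DMa and Cd74 it was 0.511 in WT CMs. In WT microglia it was -0.0099 between H2-DMa and H2-Oa. Such correlations in sparse counts are given without a test.

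Ciita was highest in the cells with the highest score, which does not contain it. It was 2.44 CPM in WT CMs with a score of 10 to 100 and 37.8 CPM in those of at least 100, and 2.62 and 38.4 CPM in Zeb2KO CMs. In WT SMs the values for scores under 10, 10 to 100 and at least 100 were 2.21, 7.11 and 31.2 CPM. In Zeb2KO microglia they were 0, 1.01 and 4.70 CPM. The upper range of WT SMs held 181 cells, and the kept SMs include the clusters raised for B cell or dendritic cell markers. Without those clusters Ciita over all WT SMs was 4.97 CPM, against 7.72 CPM with them. Their part in the upper range was not tested. H2-DMa differed less along the score in microglia, at 364, 396 and 569 CPM in the Zeb2KO library. H2-Oa was 4.43 and 80.8 CPM in the middle and upper range of Zeb2KO CMs, but 1.43 and 11.6 CPM in WT.

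**Figure D5:**
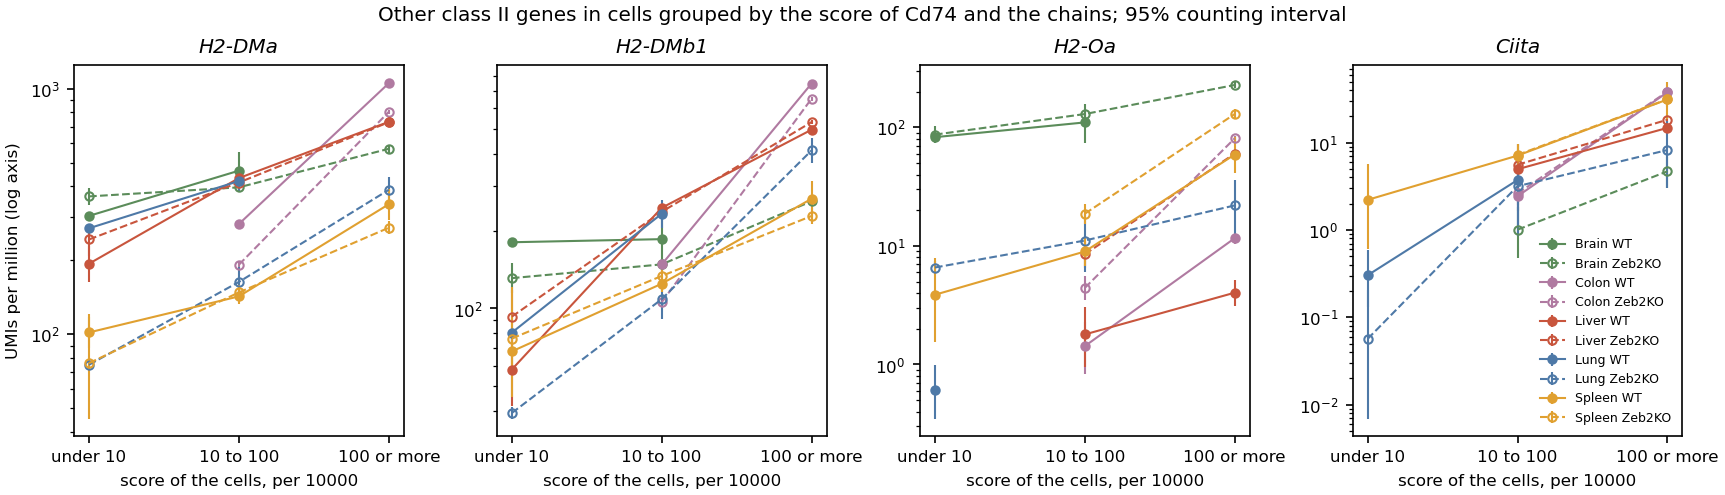
Levels of H2-DMa, H2-DMb1, H2-Oa and Ciita (CPM, log axis) in cells of 3 ranges of the score of Cd74 and the chains, by tissue (colour) and genotype (filled and solid WT, open and dashed Zeb2KO), with exact Poisson 95% intervals and points with 0 UMIs left out. Ciita is 2.44 CPM in the middle and 37.8 CPM in the upper range of WT CMs, and H2-DMa in Zeb2KO microglia stays between 364 and 569 CPM.

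Genes that varied with the score among WT cells differed by tissue. In CMs the highest r was with Cd52 (0.680), Psap (0.582), Gngt2 (0.581), Ctss (0.571) and Plbd1 (0.562), and the lowest with Folr2 (-0.694), F13a1 (-0.687), Cbr2 (-0.671), Pf4 (-0.650) and Gas6 (-0.620). In KCs Apoe (0.426), Ctss (0.409), C1qa (0.381), Clec4f (0.360) and H2-D1 (0.351) were at the upper end, and ribosomal genes such as Rpl37a (-0.297) at the lower. In microglia Apoe (0.219) and Lyz2 (0.199) stood against the homeostatic genes P2ry12 (-0.270) and Tmem119 (-0.171). In SMs the highest was 0.169 (Coro1a), with the B cell gene Cd79a at 0.138, and the lowest was the haem oxygenase gene Hmox1 (-0.177). In AMs no gene exceeded 0.0941.

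Cells with and without a UMI of a gene that marks subsets were then compared as sums. WT CMs with an Itgax (CD11c) UMI held 71124 CPM of the 4 genes and those without 33072 CPM, at medians of 12011 and 7944 UMIs. WT CMs with a UMI of Lyve1, a gene of perivascular macs, held 30991 CPM and those without 64438 CPM, at medians of 9184 and 9232.5 UMIs. Zeb2KO KCs with Siglecf, by the study a marker of KCs that lost ZEB2, held 26495 CPM and those without 15888 CPM. Zeb2KO KCs with Timd4, a gene of long-resident KCs, held 13270 CPM and those without 24718 CPM.

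Cells with a UMI of Ms4a1, which encodes CD20 and is known from B cells, held more H2-Oa in the Zeb2KO libraries of 3 tissues. By the study's account KCs that lost ZEB2 expressed CD20 and SiglecF. The study also used Ms4a1 to identify such macs in the colon. With and without an Ms4a1 UMI, H2-Oa was 159 and 29.1 CPM in CMs, 77.0 and 26.5 CPM in KCs and 132 and 26.8 CPM in SMs. The median depth of these cells was 9045 and 8454, 6496 and 5584, and 3517 and 2540 UMIs. The B cell gene Cd79a was also higher in the cells with an Ms4a1 UMI, at 6.93 and 1.28 CPM in CMs, 5.23 and 2.54 CPM in KCs and 116 and 33.3 CPM in SMs. Without the clusters raised for B cell or dendritic cell markers, a choice made after seeing the data, H2-Oa was 146 and 22.7 CPM in Zeb2KO SMs and Cd79a 34.0 and 27.2 CPM. In Zeb2KO AMs H2-Oa was 7.62 and 6.96 CPM with and without an Ms4a1 UMI, although the cluster with Ms4a1 among its leading genes (417 cells) held 15.2 CPM, above the 6.50 and 6.20 CPM of the 2 largest.

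Of a list of 15 genes for class II transcription (among them the RFX and NFY subunits, Creb1, Spi1, Irf8 and Irf1), 10 to 12 passed the floor in each comparison. In brain, colon and spleen 0 of them were called in either direction, where 4.27%, 1.07% and 2.33% of all genes were higher and 4.07%, 0.486% and 0.81% lower. In liver Jak2 was higher (14.2 and 35.3 CPM) and in lung Irf1 was lower (log2 ratio -1.02), beside 3.49% of all genes higher in liver and 7.36% lower in lung. With so few genes over the floor, these counts are near the shares of all genes. In microglia, where Ciita and the chains were higher, its members had a median log2 ratio of -0.06.

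Of 12 genes for antigen processing and class II traffic, 2 were higher and 1 lower in microglia, 1 of 11 over the floor was higher in KCs and 3 of 12 in AMs, and 0 were called in CMs and SMs. Over all genes 4.27% were higher and 4.07% lower in brain, 3.49% higher in liver and 4.35% higher in lung. In microglia Ctsl, a protease that trims the invariant chain, was 1266 CPM in WT and 3056 CPM in Zeb2KO, and Cd83, which holds class II at the surface, 410 and 1084 CPM. Cd63, a tetraspanin of the endosome, was 565 and 116 CPM in microglia but 54.0 and 1271 CPM in AMs. Ctss, the main invariant chain protease of these cells, was 7357 and 12086 CPM in microglia.

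Of 6 costimulatory genes, 3 passed the floor in brain and 2 of them were higher in Zeb2KO, beside 4.27% of all genes. Cd40 was 0.568 CPM in WT and 54.2 CPM in Zeb2KO microglia, and Icosl was 52.9 and 125.3 CPM. Of the 1 costimulatory gene over the floor in lung and the 3 in each of colon, liver and spleen, 0 were called. Of 7 further genes of the class II locus in the tables, 4 (lung) or 5 passed the floor and 0 were called in the 5 pairs. The shares of all genes, 1.07% to 4.35% higher and 0.486% to 7.36% lower, would leave such short lists with few calls or none. Tap1, for peptide transport to class I, was 38.2 and 72.7 CPM in microglia.

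Lists that follow stimulation or handling of cells were counted the same way. Of 10 interferon response genes, 3 of the 4 over the floor were higher in Zeb2KO microglia, 1 of 6 in CMs was higher, and 1 of 10 in KCs was lower, beside 4.27% of all genes higher in brain, 1.07% higher in colon and 1.22% lower in liver. Of 7 immediate early and heat shock genes, 4 were higher in Zeb2KO KCs, 4 were lower in Zeb2KO SMs, 3 were higher and 1 lower in Zeb2KO AMs, 0 were called in microglia and CMs, and 4 of 6 were lower in Nr1h3fl/fl than in Zeb2fl/fl WT KCs. The shares of all genes were 3.49% higher in liver, 0.81% lower in spleen, 4.35% higher and 7.36% lower in lung, and 0.811% lower between the WT liver libraries. Fos was 192 CPM in Zeb2fl/fl and 68.5 CPM in Nr1h3fl/fl KCs, so that these genes and the class II genes differed together between the WT liver libraries, and the part of handling was not tested. Of the recently arrived monocyte genes, Plac8 was 2.92 and 36.0 CPM in microglia and was the 1 member over the floor there. In CMs Plac8 (63.9 and 134 CPM) and Hp (0.854 and 26.4 CPM) were higher and Ccr2 (98.8 and 39.7 CPM) lower, of 5 over the floor, beside 1.07% of all genes higher and 0.486% lower. Ccr2 was higher in Zeb2KO KCs (8.69 and 62.1 CPM, of 3), beside 3.49% of all genes. Ly6c2 was higher (1.42 and 55.7 CPM) and Fn1 lower (318 and 90.3 CPM) in AMs, of 2, beside 4.35% and 7.36%. In SMs the 1 gene over the floor was not called, beside 2.33% higher and 0.81% lower. Their part in the class II differences was not tested.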

How the data were processed

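Macs sorted from 5 tissues were sequenced with 10x Genomics 3′ chemistry. The authors aligned the reads to mm10 with Cell Ranger and deposited 1 table of UMI counts per gene and barcode for each library, without normalization, and these deposited counts were used here. The 10 genes and all gene lists were chosen with earlier results of these data known.

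Barcodes further than 3 median absolute deviations from their library's median in UMIs or genes, or above it in mitochondrial share, were left out, and each tissue was clustered (scanpy 1.11.5, leidenalg 0.10.2, 2000 variable genes, 30 components, 15 neighbours, resolution 0.8) without the class II genes and lists. Clusters called another cell type by their markers were removed, and 4 clusters named in the text were kept although smooth muscle, B cell or dendritic cell genes led or were raised in them. Scrublet marked at most 0.0566% of cells, so its calls were not used and no doublets were removed; leaving out the 5% of each library with the highest doublet scores was an alternative. UMIs were summed per library and given per 1000000 (CPM). Intervals are exact 95% Poisson or binomial and cover counting error only. Within a tissue a gene was called at a 2-fold ratio of CPM plus 1 where one of the libraries held 20 CPM or more. The common shift was tested in edgeR 4.0.16 (quasi-likelihood, tissue as block), with DESeq2 1.42.0 as the alternative, and the procedure was tested on simulated data. Nothing says that libraries of different tissues came from separate animals. With 1 library per tissue and genotype and the tissue as a block, p-values measure how the Zeb2KO over WT difference varied between tissues. All 10 genes are named. Others are named from the lists, as leading genes of clusters, as the 8 of highest Pearson's r with the summed level of Cd74 and the chains over libraries, and as some of the 5 highest and 5 lowest over cells of each WT library. Shares of cells with a UMI were compared after thinning each cell to 1500 UMIs, which left out 28 WT AMs, 832 WT SMs and 538 Zeb2KO SMs. No promoter was matched for Cd74, H2-Ab1 and Ciita. A gene of the transcription list is not reported here.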

Additional observations from a re-analysis of the deposited data

Results flagged for a closer look

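For 7 genes the Zeb2KO over WT ratio went in opposite directions in 2 tissues, beyond counting error and with at least 20 CPM in one library of each. Ciita, lower in colon, was under that level in the tissues in which it was higher. Each tissue has 1 library per genotype, so the difference between tissues was not tested. How many of all genes meet the same rule was not counted, so the 7 cannot be read as a result particular to these members. Counting intervals are narrow for abundant genes, and the most positive and most negative tissue of each gene were taken. The log2 ratio of Cd74 was 5.16 in brain and -0.61 in colon, that of H2-Aa 5.02 and -0.61, that of H2-Ab1 4.56 and -0.65, and that of H2-Eb1 4.64 and -0.69. H2-DMa was 0.54 in brain and -1.70 in lung, and H2-DMb1 was 0.45 in spleen and -0.81 in lung. H2-DMb2 was 1.05 in liver and -0.26 in colon.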

How the results depend on the processing

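The tissue block stands for the pairing of the libraries by tissue. In the common shift across tissues, edgeR called 0 of the 10 genes and DESeq2 called 2. With no replicate block edgeR also called 0, and the estimates of H2-Aa, H2-Ab1 and H2-Eb1 turned to -0.071, -0.16 and -0.18. H2-DMb2 turned to -0.11 without cells holding a B cell or dendritic cell UMI. Leaving out 1 tissue at a time gave -0.25 to 0.02 for H2-DMb1, -0.05 to 0.40 for H2-DMb2 and -0.46 to 0.06 for H2-DMa, with 0.016 without the colon pair and 0.0010 without the lung pair for H2-DMb1, -0.054 without the liver pair for H2-DMb2 and 0.060 without the lung pair for H2-DMa. The cause was not tested.

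In liver 1 gene in place of 2 was at least 2-fold higher with a pseudocount of 5, with other cell types kept, without cells holding a B cell or dendritic cell UMI, and with the mean over cells, and 7 were higher with Nr1h3fl/fl as the WT. The alternative without the C1q cluster was chosen after seeing the data, like that without the raised spleen and liver clusters. In it 0 of the 10 genes were higher and 4 lower in lung, beside 244 higher and 426 lower among all genes. The log2 ratios were -1.37 for H2-Aa, -1.34 for H2-Ab1, -1.83 for H2-DMa and -1.09 for H2-DMb1. TMM scaling, which moves the lung log2 ratios up by 0.289, was not applied to this set of cells. H2-Eb1 turned to -1.12, under the floor of 20 CPM. Leaving out the 5% of each library with the highest doublet scores changed no count of called genes in any pair.

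The difference in the share of cells with a score of at least 100 was 28.2 percentage points in brain, -18.6 in colon, 0.0731 in liver, 1.40 in lung, 29.9 in spleen and -49.6 between the WT liver libraries. With a limit of 50 these were 45.5, -38.9, -4.80, 1.84, 43.4 and -46.2. With a limit of 200 they were 12.5 in brain, 9.31 in liver, 0.674 in lung, 8.70 in spleen and -26.5 between the WT liver libraries. Without cells holding a B cell or dendritic cell UMI, which kept 14.4% to 86.0% of cells, they were 31.7 in brain, -9.96 in liver, 22.8 in spleen and -52.7 between the WT liver libraries. With other cell types kept spleen was at 23.1, and without the C1q cluster lung was at 0.0521. Of the log2 ratios within tissues, 471 stayed within the counting interval, 146 moved beyond it and 3 reversed. Reversals were counted only among ratios that had passed the 2-fold rule. Smaller ratios also changed sign, such as H2-Ob in spleen, from 0.30 to -0.39 with other cell types kept.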
